A study of Homo sapiens with 16 samples.

Results

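10 genes of the G1 phase control circuit were followed through 16 RNA-seq libraries of a neuroblastoma cell line: the D-type cyclins CCND1, CCND2 and CCND3, the E-type cyclins CCNE1 and CCNE2, the kinases CDK4 and CDK6, the inhibitors CDKN1B and CDKN2C, and the retinoblastoma gene RB1. They were picked by gene symbol, which gave 10 of the 63187 genes of the deposited count table, and 9 of the 10 passed the filter on low counts. The one that did not, CCND2, was close to 0 in every library.

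The cells were SK-N-BE(2), a human neuroblastoma line with amplified MYCN, grown in DMEM with 10% serum at 21% oxygen. The libraries fall into 4 groups of 4, the cells labelled WT and 3 transfected groups that received HIF-2α, an oxygen-regulated transcription factor and the product of EPAS1. The FL group received it in full length, and the forms labelled NCTAD and cIDR are written ΔN-CTAD and Δc-IDR in the study's design text, read here as deletions of those regions. Which residues are missing, the vector, the time after transfection, the number of clones and any mock transfection of WT are not given in the sources used here, so transfection as such cannot be told apart from HIF-2α in a comparison with WT. The column names of the tables write BE2c for the line, name the FL libraries wild type and the WT libraries control; the groups here follow the sample labels. Each group has 1 library in each of 4 batches, since the labels give the replicate number also as a batch. They do not say what was shared within a batch, nor that the libraries came from separate cultures, so p-values measure only the spread between these libraries.

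In G1, D-type cyclins bind CDK4 or CDK6 and start the phosphorylation of RB1, the protein that holds E2F transcription factors inactive. E-type cyclins, themselves E2F targets, then activate CDK2 and complete that step, and the cell enters S phase. CDKN2C, of the INK4 family, blocks CDK4 and CDK6, while CDKN1B blocks CDK2 complexes. High CCND1 expression is a known feature of neuroblastoma, and CCND1 is a known HIF-2α-dependent gene in VHL-deficient kidney cancer cells.

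EPAS1 separated the libraries labelled WT from the transfected ones, while the ranges of the 3 transfected groups overlapped and cIDR was above FL and NCTAD in each of the 4 batches: it stood at 18.2 ± 6.89 CPM (counts per 1 M counts on TMM-scaled library sizes; SD, n = 4) in the WT libraries, at 2609 ± 906 in those of FL, at 2851 ± 1330 for NCTAD and at 4484 ± 1740 for cIDR. These counts include the transfected sequence. Libraries held 38.6 to 56.1 M (mega) counts. The share of counts from mitochondrially encoded genes was 6.20% to 10.3%, except 2.55% in FL replicate 4. Summed TPM (transcripts per 1 M transcripts, a level per transcript length) of 10 adrenergic neuroblastoma markers was 4097 to 4714. Of these the amplified MYCN alone had 1778 to 2347 TPM, and TH was low at 0.926 to 11.2 TPM. Every immune, endothelial and epithelial marker examined was below 1 TPM.

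Upstream sequences of 7 of the 10 genes were matched in the RefSeq promoter table (GRCh38.p14). They were searched on both strands for the core of the hypoxia response element, to which HIF dimers bind (ACGTG or GCGTG), the E-box CACGTG, which contains the core on each strand and is the site of MYC family proteins, and the E2F motifs TTTCCCGC, TTTCGCGC, TTTGCCGC and TTTGGCGC. In the 250 bases before the start, the core was found in 4 of the 7 genes (CCND3, CDK4, CDKN1B and CDKN2C), beside 43.2% of 35116 promoters of the same length. CACGTG was found in 2, with 3 copies before CDK4 and 1 before CDKN2C, beside 6.34% of promoters. None of the 7 windows held one of the E2F motifs, which 2.79% of promoters did. The windows of CCND3, CDK4, CDKN1B and RB1 lie inside the gene span of GENCODE 29, at a start further downstream. The 2 windows printed here belong to an inhibitor that was lower in batch 2 and to the kinase that was higher there. Capitals mark matches to the core or the E-box, and the CDK6 window, which has none, stops 21 bases short of the start, where GENCODE 29 places a UTR.
CDKN2C, chr1:50960495-50960744, plus strand: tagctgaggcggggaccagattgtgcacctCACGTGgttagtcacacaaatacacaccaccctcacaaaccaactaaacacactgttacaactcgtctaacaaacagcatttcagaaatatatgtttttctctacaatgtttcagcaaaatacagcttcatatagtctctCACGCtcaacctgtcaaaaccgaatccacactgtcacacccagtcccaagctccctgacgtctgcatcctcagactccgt
CDK6, chr7:92836595-92836823, minus strand: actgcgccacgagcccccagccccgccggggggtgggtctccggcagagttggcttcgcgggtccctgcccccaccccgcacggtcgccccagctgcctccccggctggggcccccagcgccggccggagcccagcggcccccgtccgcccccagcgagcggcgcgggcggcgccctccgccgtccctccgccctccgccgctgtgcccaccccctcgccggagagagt
In CDKN2C the E-box begins 220 bases and the second match, CACGC, 80 bases before the start. GC content was 45.6% in the CDKN2C window and 80.0% in the full CDK6 window, against a median of 58% over all promoters. A match is a string of letters in a window, and binding was not measured.

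Per transcript length, CCND1 and CDK4 were the most abundant of the 10 genes, at 375 ± 54.6 and 360 ± 37.8 TPM (SD over 16 libraries), and their ranges overlapped (271 to 464 and 316 to 449 TPM). CDKN1B followed at 61.4 ± 6.88 TPM and CDKN2C at 47.6 ± 8.62. RB1 (42.5 ± 6.79), CCND3 (39.9 ± 6.36) and CDK6 (38.5 ± 8.50 TPM) did not differ beyond their spread. The E-type cyclins were lower, CCNE2 at 12.7 ± 3.42 and CCNE1 at 9.36 ± 1.26 TPM. CCND2 had 0 counts in 14 libraries and about 1 count in the other 2, where a count of 0 allows up to 3 counts, or 0.0528 to 0.0812 CPM by library. Floors of this kind cover counting error only.

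CCND1 (ENSG00000110092.4, chr11:69641087-69654474, plus strand, GRCh38), the main D-type cyclin here, had the same mean in all 4 groups to within the spread: WT libraries had 1078 ± 169 CPM, FL libraries 1079 ± 183, NCTAD libraries 1074 ± 188 and cIDR libraries 1076 ± 222 (SD, n = 4). In WT its values were 1206, 839, 1189 and 1079 CPM in batches 1 to 4. The FL libraries had 1141, 813, 1128 and 1234, the NCTAD libraries 1249, 808, 1125 and 1113, and the cIDR libraries 1273, 759, 1151 and 1123 CPM. In each group the library of batch 2 was the lowest, and in CPM no construct was above or below WT in all 4 batches. On the TPM scale NCTAD (387, 294, 389 and 382) and cIDR (424, 271, 390 and 379) were below WT (438, 315, 428 and 390) in each batch. On that scale the median log2 fold change over all genes was −0.06 for NCTAD and −0.05 for cIDR (limma on log2(TPM + 1)). CCND3 (ENSG00000112576.13, chr6:41934933-42050357, minus strand) was likewise lowest in batch 2, with 35.9 to 39.3 CPM there and 51.0 to 64.5 in the other 12 libraries. CCND2 (ENSG00000118971.9, chr12:4273772-4305350, plus strand), the third D-type cyclin, was not tested. CCND1 overlaps LTO1 on the opposite strand (17.6 to 28.5 TPM); the library kit marks strand, but the strand setting of the counting is not given in the sources used here.

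**Figure D1:**
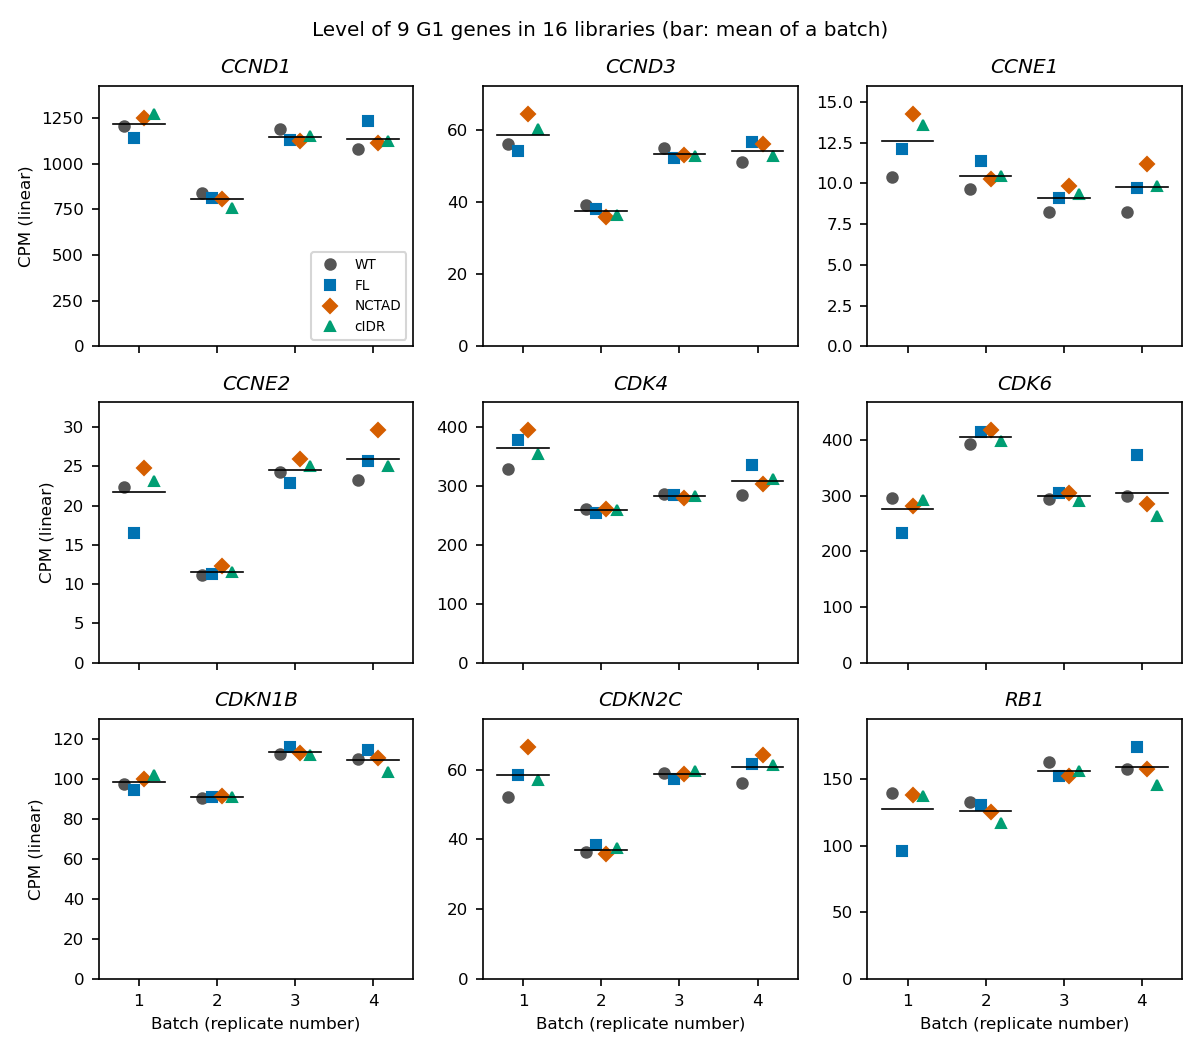
CPM (linear axis, from 0) of the 9 tested genes by batch, 1 point per library, with marker shape and colour for the group and a bar at the mean of each batch. The 4 libraries of batch 2 lie close together and below all others for CCND1 (759 to 839 against 1079 to 1273 CPM), and above all others for CDK6 (393 to 417 against 234 to 373 CPM).

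CCNE1 (ENSG00000105173.14, chr19:29811898-29824308, plus strand), an activator of CDK2, was the only 1 of the 9 genes above WT in CPM in all 4 batches in each construct, but the difference did not pass the test. The WT libraries had 10.4, 9.68, 8.25 and 8.26 CPM in batches 1 to 4. FL had 12.1, 11.4, 9.07 and 9.72, NCTAD 14.3, 10.3, 9.83 and 11.2, and cIDR 13.6, 10.4, 9.36 and 9.87 CPM. In every batch WT had the lowest CPM of the 4, while the groups overlapped when batches were ignored. In CPM all 12 pairs lay on the higher side, as they did for 1.33% of tested genes, and 5.33% (FL), 8.85% (NCTAD) and 10.5% (cIDR) of tested genes were above WT in 4 of 4 batches. On the TPM scale FL was below WT in batch 3 (7.77 against 8.16), and each other pair stayed on the higher side. Differences within a batch ranged from 0.09 to 0.45 in log2 CPM for NCTAD, from 0.11 to 0.38 for cIDR and from 0.14 to 0.23 for FL. Fitted log2 fold changes against WT were 0.21 ± 0.15 (FL), 0.31 ± 0.15 (NCTAD) and 0.24 ± 0.15 (cIDR; SE; edgeR adjusted p = 1 in the first 2 comparisons and 1.00 in the third). With the batch as a block the values were 0.21 ± 0.08, 0.31 ± 0.08 and 0.23 ± 0.08, with adjusted p of 0.920, 0.141 and 0.502 in edgeR. CCNE1 counts were 342 to 614 per library.

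CCNE2, the other E-type cyclin (ENSG00000175305.18, on chromosome 8), varied most of the 9 genes, with an SD of 0.50 in log2 CPM over the 16 libraries, which became 0.14 once batch means were subtracted. The WT libraries had 22.3, 11.2, 24.3 and 23.3 CPM in batches 1 to 4, FL 16.5, 11.3, 22.9 and 25.7, NCTAD 24.8, 12.3, 25.9 and 29.6, and cIDR 23.1, 11.5, 25.1 and 25.1. The libraries of batch 2 were near 1 level in all 4 groups, and FL replicate 1 was the lowest of the rest. NCTAD was above FL (as were 6.02% of tested genes) and above WT in 4 of 4 batches, and cIDR was above WT in 4 of 4, by 0.04 to 0.11 in log2 CPM. With the batch as a block NCTAD differed from FL by 0.27 ± 0.08 (log2 fold change, SE; edgeR adjusted p = 0.996), and without FL replicate 1 by 0.17 ± 0.05. CCNE2 overlaps INTS8 (29.7 to 48.1 TPM) and NDUFAF6 (17.0 to 31.5 TPM) on the opposite strand.

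CDK4 (ENSG00000135446.17, chr12:57747727-57756013, minus strand), per transcript length the more abundant catalytic partner of the D-type cyclins, had 290 ± 27.9 CPM in WT, and 312 ± 54.7 (FL), 309 ± 58.9 (NCTAD) and 302 ± 40.7 CPM (cIDR) in the transfected cells. By batch its CPM was highest on average in batch 1 (363 ± 28.6, SD, n = 4) and lowest in batch 2 (258 ± 3.75), but on the TPM scale batch 3 (316 to 339) reached below batch 2 (328 to 353). TSPAN31 overlaps it on the opposite strand (8.68 to 19.9 TPM). CDK6 (ENSG00000105810.10, chr7:92604921-92836594, minus strand), the second partner, had 296, 393, 295 and 300 CPM in WT, 234, 414, 305 and 373 in FL, 282, 417, 304 and 285 in NCTAD, and 293, 398, 290 and 264 in cIDR. The library of batch 2 was the highest of its group in all 4 groups. The 2 FL libraries of batches 1 and 4 were the lowest and the highest of their batch, at −0.34 and 0.32 against WT of the same batch in log2 CPM. The log2 fold change of CDK6 in FL against WT was 0.05 ± 0.18 in edgeR (adjusted p = 1), 0.17 ± 0.17 without FL replicate 1 and −0.03 ± 0.20 without FL replicate 4. The latter is the library with the low mitochondrial share. It also stood apart over all genes, with a chi-square per degree of freedom of 121 to 133 against the other libraries of batch 4. Those had 9.29 to 22.8 among themselves. The part of these traits in the result was not tested.

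CDKN1B (ENSG00000111276.12, chr12:12715058-12722371, plus strand), the inhibitor of CDK2 complexes, was the steadiest of the 9 genes, with an SD of 0.14 in log2 CPM over all libraries and 0.04 after subtracting batch means. Its group means were 103 ± 10.6 CPM for WT, 104 ± 13.3 for FL, 104 ± 9.91 for NCTAD and 102 ± 8.61 for cIDR. CDKN2C (ENSG00000123080.12, chr1:50960745-50974633, plus strand), the INK4 inhibitor, had 52.0, 36.3, 59.1 and 56.1 CPM in WT, 58.3, 38.4, 57.2 and 61.6 in FL, 66.6, 35.9, 58.7 and 64.1 in NCTAD, and 57.0, 37.6, 59.7 and 61.4 in cIDR. In CPM it was above WT in 4 of 4 batches in cIDR, as were 10.5% of tested genes, in 3 of 4 in FL and in 2 of 4 in NCTAD. On the TPM scale cIDR was below WT in batch 3 (51.1 against 51.8), whereas FL (53.4) and NCTAD (52.1) were above it there.

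RB1 (ENSG00000139687.16, chr13:48303726-48599436, plus strand), the substrate of these kinases, had 140, 133, 163 and 157 CPM in WT, 95.9, 130, 152 and 174 in FL, 138, 125, 152 and 158 in NCTAD, and 137, 117, 156 and 146 in cIDR. FL replicate 1 was the lowest and FL replicate 4 the highest of the 16 libraries, so that FL spanned a wider range than any other group. RB1 in FL against WT was −0.10 ± 0.15 on the log2 scale (edgeR adjusted p = 1), 0.02 ± 0.12 without FL replicate 1 and −0.25 ± 0.15 without FL replicate 4. In cIDR it lay below WT in 4 of 4 batches, as did 7.12% of tested genes, by 0.02 to 0.18 in log2 CPM, and its fitted change was −0.09 ± 0.15.

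None of the 9 tested genes was called in any of the 6 group comparisons (edgeR quasi-likelihood test, Benjamini-Hochberg adjusted p under 0.05 over 19530 genes), and 0 had an unadjusted p under 0.05. Over all genes 0.0102% were called in FL against WT, 0.0256% in NCTAD against WT, 0.0102% in cIDR against WT and 0% in each comparison between constructs. With the batch as a block 0 of 9 were called again, beside 0.102%, 0.456% and 0.486% of all genes against WT, 0% in NCTAD against FL, 0.0307% in cIDR against FL and 0.00512% in cIDR against NCTAD. In that fit an unadjusted p under 0.05 was reached by CCNE1 in each construct against WT, by CDKN2C and CCNE2 in NCTAD against WT, and by CCNE2 in NCTAD against FL. DESeq2 and limma called 0 of 9 as well, with and without the block. A joint edgeR test of any difference between the 4 groups, with batch as a term, called 0 of 9 genes and 0.425% of all genes (CCNE1, unadjusted p = 0.00735, adjusted p = 0.509).

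In the block fit the 95% intervals of the differences from WT included 0 for CCND1, CCND3, CDK4, CDK6, CDKN1B and RB1. For CCND1 the log2 fold change against WT was −0.00 ± 0.06 (FL), −0.01 ± 0.06 (NCTAD) and −0.01 ± 0.06 (cIDR), with intervals of −0.12 to 0.12, −0.13 to 0.11 and −0.13 to 0.11. Over the 3 comparisons the intervals reached from −0.13 to 0.17 for CCND3, from −0.10 to 0.11 for CDKN1B, from −0.07 to 0.21 for CDK4, from −0.25 to 0.24 for CDK6 and from −0.32 to 0.15 for RB1. For CCNE1 they lay above 0, at 0.04 to 0.37 (FL), 0.15 to 0.47 (NCTAD) and 0.07 to 0.39 (cIDR). In NCTAD against WT those of CCNE2 (0.01 to 0.35) and CDKN2C (0.01 to 0.26) did too, but not stably. When each of the 8 libraries was left out in turn in this fit, the interval included 0 in 5 of 8 cases for CCNE2 (0.13 to 0.22) and in 4 of 8 for CDKN2C (0.07 to 0.18, lowest without NCTAD replicate 1), as it did in 2 of 8 for CCNE1 in FL and in 0 of 8 for CCNE1 in NCTAD and in cIDR. With group as the only term and without WT replicate 2, CCNE2 stood at −0.01 and CDKN2C at 0.02 in NCTAD against WT. These intervals are not adjusted for the number of genes, and 0 of these differences passed the adjusted edgeR test. The median over the 9 genes was 0.02, 0.04 and −0.00 in the same order, beside 0.01, 0.02 and 0.01 over all genes. The 3 comparisons share the WT libraries. In the block fit 1 of 18 hypoxia genes was higher than WT in FL, 8 of 18 in NCTAD and 9 of 18 in cIDR, and 0 were lower. With group as the only term edgeR called 0 of 18 in each, and DESeq2 called 0, 1 and 2. With the block DESeq2 called 5, 8 and 11, and limma on log2(TPM + 1) called 1, 3 and 5. Named after its values were seen, BHLHE40, a hypoxia-induced transcriptional repressor, was called in all 3 in the block fit, at 0.78 ± 0.08, 0.93 ± 0.08 and 1.11 ± 0.08 (log2 fold change, SE; edgeR adjusted p = 0.000308, 5.92e-05 and 5.79e-06). With group as the only term its values were 0.80 ± 0.24, 0.93 ± 0.24 and 1.11 ± 0.25, and none of the 3 was called (edgeR adjusted p = 1, 1 and 1.00).

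Batch 2 differed from the mean of the other batches in 8 of the 9 genes, with 7 lower and CDK6 higher, and it did so in WT cells as in the transfected ones. The test set batch 2 against the mean of batches 1, 3 and 4 with group as a term, and over all genes 53.9% were called (27.7% higher, 26.1% lower), so a call as such is common in this contrast. By limma on log2(TPM + 1), another test and scale, 5405 genes were higher and 3017 lower. Batch 2 was singled out with earlier results of these data known, and a batch is 1 unit without a replicate: the p-values concern the spread of libraries within batches. What set batch 2 apart is not given in the sources used here. In bulk RNA a different mix of cells, such as fewer in 1 cell cycle phase, and less RNA per cell cannot be told apart.

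Of the cyclins, CCNE2 fell most, from 24.1 ± 3.05 CPM (SD, n = 12) to 11.6 ± 0.517 (n = 4), a log2 fold change of −1.05 ± 0.07 or 0.484-fold (edgeR adjusted p = 1.73e-08). Taken group by group the difference was −1.05 for WT, −0.92 for FL, −1.11 for NCTAD and −1.08 for cIDR (log2 CPM). CCND3 was at 37.4 ± 1.60 against 55.4 ± 3.78 CPM (−0.56 ± 0.05, edgeR adjusted p = 3.53e-07). CCND1 was at 805 ± 33.4 against 1168 ± 61.2 CPM (−0.54 ± 0.05, 0.689-fold, edgeR adjusted p = 2.78e-07). Both D-type cyclins were lower in batch 2 in all 4 groups, by 0.46 to 0.68 in log2 CPM. CCNE1 did not share this: it was at 10.4 ± 0.712 against 10.5 ± 1.94 CPM, a log2 fold change of 0.02 ± 0.06 with a 95% interval of −0.12 to 0.15 (edgeR adjusted p = 0.845), higher in 2 groups and lower in the other 2. That reference pools unlike batches, with 12.6 ± 1.71 CPM in batch 1, 9.13 ± 0.662 in batch 3 and 9.75 ± 1.19 in batch 4 (SD, n = 4). The mean of batch 2 lay between them.

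The kinases moved in opposite directions. CDK4 fell to 258 ± 3.75 from 318 ± 39.5 CPM (−0.29 ± 0.05, edgeR adjusted p = 7.96e-05), a call that was lost by limma on log2(TPM + 1) (−0.11, adjusted p = 0.131). CDK6 rose to 406 ± 12.1 from 293 ± 32.1 CPM (0.47 ± 0.07, 1.38-fold, edgeR adjusted p = 7.98e-05), by 0.41 (WT), 0.47 (FL), 0.52 (NCTAD) and 0.50 (cIDR) in log2 CPM. Among the inhibitors CDKN2C fell to 37.1 ± 1.15 from 59.3 ± 3.81 CPM (−0.68 ± 0.05, 0.626-fold, edgeR adjusted p = 4.79e-08), and CDKN1B to 91.2 ± 0.510 from 107 ± 7.36 (−0.23 ± 0.04, edgeR adjusted p = 9.04e-05). By batch CDKN1B had 98.7 ± 3.30 CPM in batch 1, 114 ± 1.83 in batch 3 and 110 ± 4.70 in batch 4 (SD, n = 4). In TPM its batch 1 (55.6 ± 4.29) was level with batch 2 (55.9 ± 0.762). RB1 fell to 126 ± 7.09 from 147 ± 19.5 CPM (−0.22 ± 0.08, edgeR adjusted p = 0.0304), but this was not particular to batch 2. Batch 1, which holds FL replicate 1 at 95.9 CPM, had 128 ± 21.2 CPM. Batches 3 and 4 had 156 ± 5.14 and 159 ± 11.8 CPM (SD, n = 4). In TPM batch 1 was at 36.3 ± 7.10 and batch 2 at 39.0 ± 2.62. The call of RB1 was lost by limma on log2(TPM + 1) (−0.14, adjusted p = 0.266) and without replicate 2 of WT (−0.22, edgeR adjusted p = 0.0727), NCTAD (−0.21, 0.0939) or cIDR (−0.19, 0.118).

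The libraries of batch 2 did not overlap with the other 12 for 7 of the 9 genes, the 6 lower ones being CCND1, CCND3, CCNE2, CDK4, CDKN1B and CDKN2C, and the higher one CDK6. The same was seen for 29% of all tested genes, 14.6% lower and 14.4% higher. On the TPM scale 4 of the 9 did not overlap, all lower (CCND1, CCND3, CCNE2 and CDKN2C), beside 21.2% of tested genes. CDK6 overlapped there through FL replicate 4 (48.2 to 51.7 TPM in batch 2, up to 48.7 elsewhere), and CDK4 and CDKN1B overlapped as well. The median log2 fold change of the 9 genes was −0.29, beside 0.03 over all genes.

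Within families, the balance shifted with the batch for the E-type cyclins and the kinases, but not for the D-type cyclins. CCND1 made up 89.3% to 91.2% of D-type cyclin TPM in all 16 libraries. CCNE2 made up 40.5% to 47.5% of E-type cyclin TPM in batch 2, against 47.9% to 65.6% elsewhere, where the lowest value, from FL replicate 1, came next to that of WT in batch 2 (47.5%). CDK6 made up 12.3% to 13.6% of the CDK4 and CDK6 TPM in batch 2, above the 6.25% to 10.1% of the other 12 libraries. The ratio of D-type cyclin TPM to CDK4 and CDK6 TPM was 0.790 to 0.890 in batch 2 and 0.968 to 1.26 elsewhere. The ratio of CDKN2C to CDKN1B TPM was 0.613 ± 0.0223 (SD, n = 4) in batch 2 and 0.831 ± 0.0867 (n = 12) elsewhere. The CDK6 share by group, 9.83% ± 1.75 for WT, 9.88% ± 2.99 for FL, 9.68% ± 2.67 for NCTAD and 9.46% ± 2.34 for cIDR (SD, n = 4), differed by less than the spread. These shares were not tested.

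The other batches differed from each other too. Batch 1 against the rest called 6 of 9 genes (24.7% of all genes): CCND1 (0.26 ± 0.05), CCND3 (0.30 ± 0.05), CCNE1 (0.36 ± 0.06), CDK4 (0.36 ± 0.04) and CDKN2C (0.20 ± 0.05) were higher and CDK6 (−0.27 ± 0.08, log2 fold change and SE) was lower. Batch 3 called 5 of 9 (16% of all genes), among them CCNE2 at 0.40 ± 0.06 and CCNE1 at −0.25 ± 0.06. Batch 4 called 3 of 9 (13.4%), CCNE2 at 0.50 ± 0.06, CDKN2C at 0.27 ± 0.05 and CDKN1B at 0.13 ± 0.04. Since batch 2 is part of each of these references, the contrasts are not independent of one another. A joint edgeR test over the 4 batches called 9 of 9 genes and 53.1% of all genes.

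Of 36 other genes of the G1/S pathway (CDK2 and its activators, E2F and DP factors, further inhibitors, RB1 relatives, ubiquitin ligase parts and MYCN), 35 were tested, and CCNA1 was not, at 0 to 5 counts. None was called in a group comparison by edgeR with or without the block. In batch 2 10 were higher and 14 lower (median −0.03), beside 27.7% higher and 26.1% lower over all tested genes. By limma on log2(TPM + 1), where both the test and the scale differ, 11 were higher and 8 lower. In that fit 5405 of 19530 genes were higher and 3017 lower. CDKN1A, the CDK inhibitor induced by p53, rose to 71.5 ± 8.98 CPM from 24.6 ± 3.52 (1.54 ± 0.07, edgeR adjusted p = 4.37e-10), with 62.4 to 83.9 CPM in batch 2 and 20.8 to 32.0 elsewhere. CDKN1C, an inhibitor of the same family, rose to 2.05 ± 1.05 from 0.313 ± 0.174 CPM (2.70 ± 0.29, edgeR adjusted p = 1.89e-06), by 1.09 on log2(TPM + 1), where low genes change less by construction. Its batch 2 libraries stood at 0.633 CPM (WT), 2.29 (FL), 2.12 (NCTAD) and 3.17 CPM (cIDR). CDC25A, the phosphatase that activates CDK2, fell to 36.2 ± 1.65 from 60.8 ± 4.31 CPM (−0.75 ± 0.05, edgeR adjusted p = 1.18e-08). E2F1 fell to 125 ± 3.87 from 176 ± 15.8 CPM (−0.50 ± 0.05, edgeR adjusted p = 5.00e-07) and TFDP1, which encodes its dimer partner, to 172 ± 6.32 from 234 ± 11.7 (−0.45 ± 0.05, edgeR adjusted p = 1.43e-06).

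The E2F-driven S-phase list of 22 genes, which shares CCNA2 with the G1/S list, had 17 genes lower and 1 higher in batch 2 (median −0.35). Over all tested genes 26.1% were lower and 27.7% higher. Between groups 0 of the list were called by edgeR with or without the block. Named after its values were seen, MCM3 of the replicative helicase was at −0.77 ± 0.04 (edgeR adjusted p = 2.17e-09), and the gene that rose was TOP2A, a topoisomerase of late S phase and mitosis (0.23 ± 0.05, edgeR adjusted p = 0.000667). In the WT cells alone the library of batch 2 was below the other 3 for 17 of the 22 genes, as it was for 34.4% of all tested genes. Of 18 hypoxia genes 16 were higher in batch 2 and 0 lower (median 1.09), beside the same 27.7% and 26.1% of all tested genes. In WT the library of batch 2 was above the other 3 for 16 of 18 (38.7% of all tested genes). All cells are labelled with 21% oxygen. Summed TPM of 8 mesenchymal or fibroblast markers was 107 to 112 in batch 2 and 45.8 to 61.0 elsewhere, with 4 of the 8 below 1 TPM (COL1A2, COL3A1, PDGFRA and TWIST2, the last at 0 throughout). Summed TPM of 4 Schwann markers was 6.60 to 8.50 in batch 2 and 3.98 to 6.79 elsewhere. EPAS1 in WT was 28.1 CPM in batch 2 and 13.0 to 17.3 in the other batches. In the transfected cells, whose counts include the transfected sequence, batch 2 was the lowest library in NCTAD (1320 against 2203 to 4228 CPM) and cIDR (2189 against 4078 to 5852), and lay within the range of the others in FL (2001 against 1691 to 3580). The part of these differences in the values of the G1 genes was not tested.

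The genes most like the 3 most variable members were named by Pearson's r over log2 CPM of the 16 libraries, among 12360 genes with a mean log2 CPM of at least 1. For CCNE2 they were RCBTB2 (0.982), TAF9B (0.981) and FAM111B (0.977), for CDKN2C MESD (0.983), PRIMA1 (0.982) and TIMM21 (0.981), and for CCND3 PSMD11 (0.995), CDC6 (0.993) and CENPO (0.992). These libraries share batches, and without batch 2 r of these 9 genes fell to between 0.690 and 0.945. After subtracting batch means the nearest genes were EIF5 (0.955) for CCNE2, MVK (0.936) for CDKN2C and CENPN (0.945) for CCND3. Over log2 CPM of the 12 libraries without batch 2, not centred, r was 0.533 for EIF5, −0.000360 for MVK and 0.909 for CENPN. Among the members CCND1 and CCND3 went together over 16 libraries (r = 0.98) and after subtracting batch means (0.75), whereas CCND1 and CDK6 had r of −0.77 over all libraries and 0.65 within batches. The correlations are descriptions over libraries that share depth and batch.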

How the data were processed

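RNA of 16 libraries was read as poly(A)-selected stranded libraries (250 ng RNA, 13 PCR cycles), per the labels' protocols. The submitters' processing notes name fastp, STAR, Salmon and featureCounts and the build GRCh38, without versions or roles. The deposited tables hold estimated counts per gene, not scaled, per the file headers and values, and TPM by the authors from the same quantification. Estimated counts (37.5% of values above 0 were not whole, to within 0.0005) were rounded. Coordinates are from GENCODE 29 and sequences from RefSeq.

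Genes passing filterByExpr (19530) were tested with edgeR 4.0.16 (quasi-likelihood, TMM) in R 4.3.3, with group as the only term over the 16 libraries and Benjamini-Hochberg adjustment at 0.05. CPM are counts per 1 M counts on TMM-scaled totals, with a prior count of 2 added for log2 CPM. The SE was obtained from the log2 fold change and the square root of F. Batches were compared with group as a term. The labels give the replicate number as a batch, which pairs the libraries: deviations from group means correlated with a mean r of 0.308 within batches (0.0674 to 0.712, 24 pairs) and −0.0945 between libraries of other batches and groups. No 2 libraries were copies (all pairs differed beyond sampling noise). Scripts were tested on simulated data. Alternatives were the batch as a replicate block, size factors of DESeq2 1.42.0, DESeq2, no filter, only the 8 libraries compared, limma 3.58.1 on log2(TPM + 1) and log2(TPM + 0.1), no group term, each library left out and batch 2 left out. DESeq2, limma and left-out libraries with the block were added after seeing the data.

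All 10 members are named in the text. Of the other G1/S genes up to 5 per comparison are named, by smallest adjusted p, and likeness is given for the 3 members with the largest SD. Members and lists were chosen with earlier results of these data known. Depth was 38.6 to 56.1 M counts, at which CCND2 was too low to test. Figures used matplotlib 3.10.9.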

Additional observations from a re-analysis of the deposited data

Results flagged for a closer look

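Among the 36 sets of 4 libraries examined (9 genes in 4 groups), 4 held 1 library far from the other 3, with a gap, as a share of the whole range, above Dixon's 95% critical value. Chance alone marks about 1 in 20 such sets. CCNE2 in WT replicate 2 was lowest at 11.2 CPM, against 22.3 to 24.3 in the other WT libraries (gap over range, 0.847). In cIDR replicate 2 CCNE2 was lowest at 11.5 CPM, against 23.1 to 25.1 (0.853). CDK6 in WT replicate 2 was highest at 393 CPM, against 295 to 300 (0.951), and in NCTAD replicate 2 it was highest at 417 CPM, against 282 to 304 (0.835). All 4 libraries belong to batch 2.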

How the results depend on the processing

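In the 6 group comparisons 0 of the 9 genes were called under every alternative run, and the replicate block left this count at 0. The 54 log2 fold changes had 1512 alternative values, with adjusted p from 0.0714 to 1, the lowest for CCNE1 in NCTAD against WT with the block and without NCTAD replicate 2. The sign turned in 303 of these values over 48 of the 54 results, none of them called. CCNE1 kept its sign against WT under all alternatives (0.12 to 0.28 in FL, 0.19 to 0.38 in NCTAD, 0.07 to 0.31 in cIDR). In batch 2 the count of called members was 8 or 7 when 1 library was left out, and 6 by limma on log2(TPM + 1) and log2(TPM + 0.1), where CDK4 and RB1 were lost and test and scale changed together. Of 198 alternative values for batch 2, 7 lost the call and 3, all of CCNE1, changed sign. Over all genes the block called 20, 89 and 95 genes against WT where group alone called 2, 5 and 2, and 0, 6 and 1 between constructs where group alone called 0. DESeq2 called 11, 17, 8, 2, 0 and 3 genes in the 6 comparisons, and 58, 168, 156, 12, 46 and 21 with the block. Without batch 2 the counts were 10, 39, 33, 0, 5 and 0. By limma on log2(TPM + 1) they were 3, 1, 2, 0, 0 and 0, with 16, 36, 49, 0, 0 and 0 with the block, and on log2(TPM + 0.1) 2, 2, 2, 0, 0 and 0, with 16, 47, 47, 0, 0 and 0 with the block. In batch 2, 5414 genes were higher and 5107 lower, against 5405 and 3017 by limma on log2(TPM + 1). In that fit the E2F list had 16 lower and 2 higher, and the G1/S list 8 lower and 11 higher. CDKN1C was the 1 gene of the G1/S list called in a group comparison, by DESeq2 with the block in NCTAD and cIDR against WT and by limma on log2(TPM + 0.1) with the block in cIDR. The cause of these differences was not tested. Genes at a few counts, such as CCND2, were below what this depth can compare.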
